A study of Mus musculus with 2 samples.

Results

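Fibrillar collagen chains were followed through the cell types of the normal mouse thoracic aorta. The set is the 7 genes *Col1a1*, *Col1a2*, *Col3a1*, *Col5a1*, *Col5a2*, *Col5a3* and *Col11a1*, which were found by symbol as 7 of the 32287 features measured. Single-cell transcriptomes came from 2 aortas of male WT mice of the C57BL/6J strain, designated GFPiSMC (genotype Myh11-CreERT2.mT/mG), aged 12 weeks (1 group, n = 2). Both animals carried a tamoxifen-inducible Cre under the smooth muscle *Myh11* promoter and a membrane reporter that Cre switches from tdTomato to eGFP, and both had been given daily i.p. tamoxifen (1 mg) over 5 days, starting at 3 weeks of age. Only males carry this transgene, which is on the Y chromosome. No untreated or receptor-deleted aorta entered the comparisons, which lie between cell types of the same vessels.

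Fibrillar collagens are triple helices that pack into the banded fibrils that bear tension in the arterial wall. Type I collagen is usually built from a pair of α1(I) chains (*Col1a1*) and a single α2(I) chain (*Col1a2*), and type III from identical α1(III) chains (*Col3a1*). Type V (*Col5a1*, *Col5a2* and, in some tissues, *Col5a3*) and the closely related type XI (*Col11a1*) are minor components. They co-assemble with more abundant fibrillar collagens and help to set the number and width of fibrils. In the aorta the adventitia is rich in type I, while the media holds types I and III between its elastic laminae.

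In GENCODE annotation of GRCm38 (the mm10 coordinates), *Col1a1* (ENSMUSG00000001506) is on chromosome 11 from 94936224 to 94953042 on the plus strand, and *Col1a2* (ENSMUSG00000029661) is on chromosome 6 from 4504814 to 4541544 on the plus strand. *Col3a1* (ENSMUSG00000026043; plus strand, 45311538 to 45349706) and *Col5a2* (ENSMUSG00000026042; minus strand, 45374321 to 45503282) are neighbours on chromosome 1 that point toward each other across a gap of 24614 bases. *Col5a1* (ENSMUSG00000026837) is on chromosome 2 from 27886425 to 28039514 (plus), *Col5a3* (ENSMUSG00000004098) on chromosome 9 from 20770050 to 20815067 (minus) and *Col11a1* (ENSMUSG00000027966) on chromosome 3 from 114030540 to 114220718 (plus). All are multi-exon genes, with 48 to 68 merged exons each. Other annotated genes overlap 5 of them. They lie on the same strand for *Col1a2* (*Gm43921*), *Col3a1* (*Gm47302*) and *Col5a2* (*Gm38211*). They lie on the opposite strand for *Col5a1* (*2810430I11Rik* and *Gm13372*) and *Col5a3* (*Gm26274*). Whether the counting used strand is not given in the sources used here, so how reads over these stretches were assigned is not known.

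Promoter sequence was at hand for 5 of the 7 genes, with no entry for *Col1a1* and *Col5a2*. Shown here are the 250 bases before the RefSeq start site (GRCm38.p6) of *Col3a1*, the type III chain, and of *Col5a1* and *Col5a3*, a pair of type V chains that differed in how far they reached beyond fibroblasts, written 5′ to 3′ on each gene's own strand. Capitals mark matches on either strand to 3 promoter motifs. The first, CCAAT, is the element bound by the factor NF-Y. The second is the core of the TATA box, written TATAAA, which positions the transcription machinery. The third is the GC box, GGGCGG, which is recognised by factors of the Sp family. None of these motifs overlapped another here.
*Col3a1*, chr1:45311288-45311537, plus strand: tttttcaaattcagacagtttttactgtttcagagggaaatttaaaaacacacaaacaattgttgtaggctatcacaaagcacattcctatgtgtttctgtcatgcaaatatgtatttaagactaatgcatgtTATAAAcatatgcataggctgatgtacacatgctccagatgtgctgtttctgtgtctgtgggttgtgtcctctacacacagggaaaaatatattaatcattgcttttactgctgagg
*Col5a1*, chr2:27886175-27886424, plus strand: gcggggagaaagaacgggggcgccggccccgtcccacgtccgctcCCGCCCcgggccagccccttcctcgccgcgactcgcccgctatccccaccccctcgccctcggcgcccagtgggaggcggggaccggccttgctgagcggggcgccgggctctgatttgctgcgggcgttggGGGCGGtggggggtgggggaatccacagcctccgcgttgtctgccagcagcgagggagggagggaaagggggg
*Col5a3*, chr9:20815068-20815317, minus strand: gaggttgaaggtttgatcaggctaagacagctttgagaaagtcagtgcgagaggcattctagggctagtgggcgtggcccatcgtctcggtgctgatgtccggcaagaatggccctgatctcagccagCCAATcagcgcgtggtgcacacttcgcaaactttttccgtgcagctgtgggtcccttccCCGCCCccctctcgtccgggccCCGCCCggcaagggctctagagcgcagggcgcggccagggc
The *Col3a1* stretch had 35.2% G and C and 1 TATA box match, 117 bases before the start. The *Col5a1* stretch had 76.4% G and C and held 2 GC box matches. The *Col5a3* stretch had 62.8% G and C, 2 GC box matches and 1 NF-Y element. Among the 250-base stretches of all 32851 promoters, the NF-Y element was found in 33.9%, the TATA box in 12.4% and the GC box in 32.7%. Such matches describe the letters and do not show that a site is used.

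Captured RNA molecules were counted by their molecular barcodes (UMIs) at the 3′ end of transcripts, so that levels of different genes were compared without division by length. Levels are in CPM, a gene's UMIs divided by all UMIs of that cell type and aorta and multiplied by 1000000. The deposited 8947 and 6263 cells held 47009780 and 30919996 UMIs, and 6539 and 4614 cells entered the analysis, where the labels give 6278 and 4300 after the study's own filter. Clusters were named from markers, with the 7 chains and the collagen-processing genes left out of the clustering. They gave 2363 and 1706 smooth muscle cells (SMCs), 1497 and 1047 fibroblasts, 785 and 730 endothelial cells, 275 and 158 mesothelial cells, 906 and 573 myeloid cells and 621 and 363 lymphocytes in aortas 1 and 2. The 8 fibroblast markers summed to 40991 and 41770 CPM in fibroblasts against 1076 and 974 in SMCs, and the 7 SMC markers to 41439 and 39599 CPM in SMCs against 895 and 657 in fibroblasts. Of the SMC clusters, 1 of 504 and 444 cells and 1 of 259 and 204 cells had a pericyte marker (*Rgs5* and *Notch3*) and no SMC marker among their 10 leading genes. Without both, a choice made after the data were seen, all 7 chains stayed called higher in fibroblasts than in SMCs, at 3.76 for *Col1a1* and 2.99 for *Col1a2* in log2. SMCs also included a cluster of 446 and 272 cells with a median of 1750 UMIs, and the aortas shared 18 cell barcodes. Lymphocytes, which do not make fibrillar collagen, gave the level of RNA from other cells. Myeloid values were lower than lymphocyte values for *Col1a1*, *Col1a2*, *Col3a1*, *Col5a1* and *Col5a2* in both aortas. The level called background therefore depends on this choice. A cell type's level cannot tell fewer expressing cells from less RNA per cell.

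The 7 chains together took up 2.88% and 2.99% of all fibroblast UMIs in aortas 1 and 2, 0.373% and 0.376% of SMC UMIs and 0.384% and 0.482% of mesothelial UMIs. Endothelial cells gave 0.0997% and 0.103%, lymphocytes 0.0267% and 0.0578% and myeloid cells 0.0191% and 0.0192%. Fibroblasts held 22.7% ± 0.14 (SD, n = 2) of all UMIs. Their share was 94.1% ± 0.05 for *Col5a3*, 85.6% ± 0.43 for *Col1a1*, 84.7% ± 1.37 for *Col11a1*, 76.8% ± 0.42 for *Col1a2*, 76.1% ± 0.52 for *Col3a1*, 57.5% ± 1.91 for *Col5a1* and 51.0% ± 0.12 for *Col5a2*. SMCs held 43.5% ± 1.17 of all UMIs and 37.3% ± 1.92 of *Col5a1* and 36.9% ± 0.81 of *Col5a2*, against 12.4% ± 0.21 of *Col1a1* and 2.38% ± 0.26 of *Col5a3*. Endothelial cells held 8.45% ± 0.98 of all UMIs and 9.49% ± 1.02 of *Col5a2*, but 0.255% ± 0.01 of *Col1a1*. These shares depend on which cells survived digestion and sorting.

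**Figure D1:**
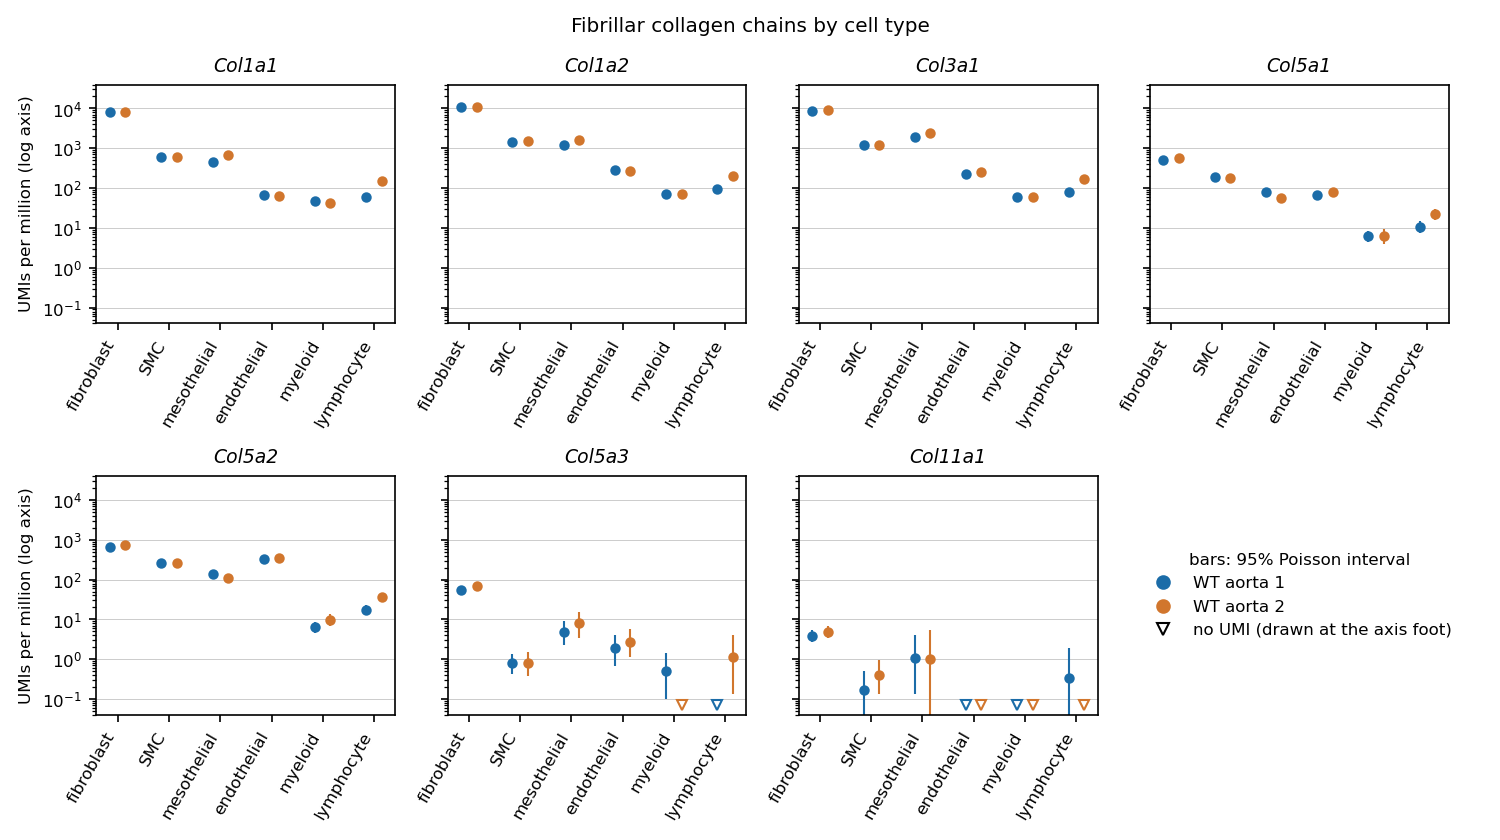
Level of each chain (CPM, log axis) in 6 cell types; points are the 2 WT aortas, bars are 95% Poisson intervals for counting error, and open triangles mark no UMI. Fibroblasts are highest in all 7 panels, and endothelial cells are second only for *Col5a2* (339 and 360 CPM). *Col5a3* falls to a few CPM or less outside fibroblasts and mesothelial cells, and *Col11a1* is at a few CPM or less in every type.

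The chains of type I were led by *Col1a2* in every cell type. *Col1a1*, which encodes α1(I), was at 8134 and 8159 CPM in the fibroblasts of aortas 1 and 2, 615 and 617 in SMCs, 461 and 676 in mesothelial cells, 69.0 and 62.1 in endothelial cells, 61.5 and 154 in lymphocytes and 47.8 and 42.5 in myeloid cells. SMC and mesothelial values overlapped. The endothelial values lay within the range of the lymphocyte values, the background, but above both myeloid values. *Col1a2*, which encodes α2(I), was at 10671 and 10987 CPM in fibroblasts, 1457 and 1502 in SMCs, 1233 and 1595 in mesothelial cells, 288 and 271 in endothelial cells, 97.8 and 198 in lymphocytes and 70.0 and 72.6 in myeloid cells. Here the endothelial values lay above the lymphocyte values in both aortas. Lymphocyte values were higher in aorta 2 than in aorta 1 for 6 of the 7 chains.

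For *Col3a1*, the chain of type III, mesothelial cells, which line serous surfaces, ranked second, as they did for the rare *Col5a3*. It was at 8758 and 9419 CPM in fibroblasts, 1921 and 2381 in mesothelial cells, 1210 and 1200 in SMCs, 230 and 254 in endothelial cells, 79.6 and 167 in lymphocytes and 60.4 and 60.8 in myeloid cells. No neighbours among the first 4 types overlapped.

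The type V chains spread differently from each other. *Col5a1*, encoding α1(V), was at 509 and 568 CPM in fibroblasts, 186 and 179 in SMCs, 79.4 and 56.5 in mesothelial cells, 69.0 and 78.7 in endothelial cells, 10.8 and 22.3 in lymphocytes and 6.14 and 6.35 in myeloid cells. *Col5a2*, encoding α2(V), was at 675 and 720 CPM in fibroblasts, 339 and 360 in endothelial cells, 263 and 264 in SMCs, 137 and 107 in mesothelial cells, 17.5 and 36.7 in lymphocytes and 6.47 and 9.94 in myeloid cells. Among the 5 chains with over 100 CPM in SMCs, it is the one whose endothelial values exceeded the SMC values in both aortas. *Col5a3*, encoding α3(V), was at 55.2 and 67.9 CPM in fibroblasts (514 and 428 UMIs), 4.96 and 7.93 in mesothelial cells (9 and 8 UMIs), 1.88 and 2.77 in endothelial cells (6 and 7 UMIs), 0.798 and 0.816 in SMCs (14 and 10 UMIs), 0 and 1.11 in lymphocytes and 0.498 and 0 in myeloid cells. SMC and lymphocyte values of *Col5a3* overlapped. *Col11a1*, encoding α1(XI), was the rarest chain, with 36 and 31 UMIs in fibroblasts (3.87 and 4.92 CPM), 3 and 5 in SMCs (0.171 and 0.408 CPM), 2 and 1 in mesothelial cells, 1 and 0 in lymphocytes and none in endothelial or myeloid cells. For endothelial cells that count of 0 allows up to 0.94 and 1.19 CPM, so its place below fibroblasts is clear but the order of the other types is not.

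In fibroblasts against SMCs, all 7 chains were higher in fibroblasts (edgeR quasi-likelihood test, adjusted p under 0.05 and log2 fold change over 1), where 16.6% of the 13973 genes tested were called higher. The minor chain *Col5a3* differed most, by 6.17 on the log2 scale (SE 0.24, adjusted p = 1.06e-14). *Col11a1* followed at 3.85 (SE 0.51, adjusted p = 3.01e-06) and *Col1a1* at 3.69 (SE 0.31, adjusted p = 1.04e-09). *Col3a1* at 2.88 (SE 0.30, adjusted p = 3.55e-08) and *Col1a2* at 2.84 (SE 0.31, adjusted p = 7.7e-08) were close together. The smallest differences were those of *Col5a1* at 1.52 (SE 0.13, adjusted p = 2.07e-09) and *Col5a2* at 1.37 (SE 0.16, adjusted p = 2.26e-07). Every fibroblast value lay above every SMC value for each chain. How many of all tested genes separated in this way was not counted. Across all tested genes the call split into 2316 higher and 1436 lower, with a median log2 fold change of 0.11, and DESeq2 moved the split to 2646 and 978 and the median to 0.35. The call of *Col11a1*, which rests on few UMIs, was lost with DESeq2 (log2 fold change 4.13, adjusted p = 0.423).

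The 8 fibroblast markers stood in SMCs at 0.479% to 5.76% of their fibroblast level in aorta 1 and 0.375% to 5.58% in aorta 2. *Col1a1* stood at 7.56% and 7.57%, *Col1a2* at 13.7% in both, *Col3a1* at 13.8% and 12.7%, *Col5a1* at 36.5% and 31.5% and *Col5a2* at 39.0% and 36.6%, each above all 8 markers. *Col5a3* at 1.44% and 1.20% lay within the range of the markers. *Col11a1* gave 4.42% and 8.31% from 3 and 5 UMIs. In the 247 and 198 SMCs without any UMI of a fibroblast marker, a choice made after the data were seen that kept shallow cells (medians 1829 and 1952 UMIs), the log2 fold changes were 4.24 for *Col1a1*, 3.22 for *Col1a2*, 3.16 for *Col3a1*, 1.69 for *Col5a1* and 1.48 for *Col5a2*. *Col5a3* had no UMI in these cells, so that no fold is given for it. The part of fibroblast RNA in the SMC values was not tested.

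**Figure D2:**
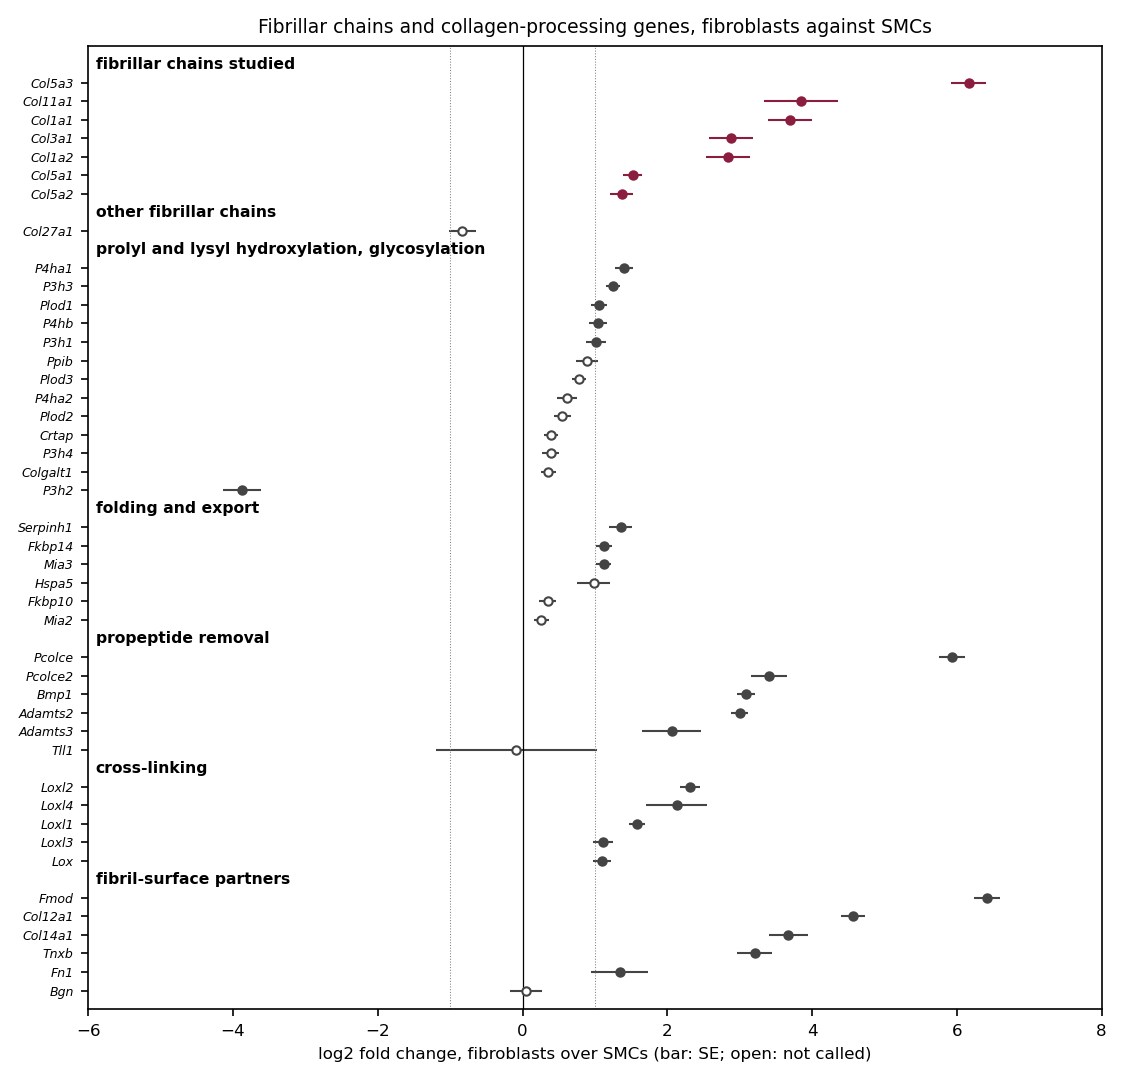
Log2 fold change of fibroblasts over SMCs (points, bars are SE) for the 7 chains in red and 37 tested genes of collagen processing in grey, with dotted lines at 1 and -1 and open points for genes not called. The chains range from 1.37 (*Col5a2*) to 6.17 (*Col5a3*), and *P3h2* is the single gene called on the left.

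Genes that modify, export and assemble procollagen were taken from 6 lists of 44 genes, of which 37 passed the filter on low counts. In fibroblasts against SMCs, 23 were higher and 1 was lower, with a median log2 fold change of 1.12 over the 37, where 16.6% of all genes tested were higher, 1436 of 13973 were lower and the median was 0.11. All 5 cross-linking genes of the lysyl oxidase family were higher, as were 5 of 6 tested genes for removal of propeptides, 5 of 6 fibril-surface partners, 3 of 6 genes for folding and export, and 5 of 13 for hydroxylation and glycosylation, where 1 was lower. The largest differences were those of *Fmod*, encoding fibromodulin, a proteoglycan that binds type I fibrils (6.41, SE 0.18, adjusted p = 3.29e-17), and *Pcolce*, an enhancer of C-propeptide cleavage (5.93, SE 0.18, adjusted p = 5.04e-17). The smallest called values were *P3h1*, a prolyl 3-hydroxylase (1.01, SE 0.13, adjusted p = 1.94e-06), and *P3h2*, another prolyl 3-hydroxylase and the one gene higher in SMCs (-3.88, SE 0.27, adjusted p = 9.04e-11). *P3h2* was at 16.8 and 19.1 CPM in SMCs and 0.967 and 1.59 in fibroblasts. Of the remaining fibrillar chains, *Col27a1* was tested and not called (-0.83, SE 0.19, adjusted p = 0.000638), while *Col2a1*, *Col11a2* and *Col24a1* stayed at or below 1.08 CPM in both types.

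The mesothelium was compared with both. Fibroblasts were higher than mesothelial cells for all 7 chains, in a comparison where 13.9% of genes were called in that direction, with log2 fold changes from 2.22 (*Col11a1*, SE 0.76, adjusted p = 0.0267) and 2.31 (*Col3a1*, SE 0.29, adjusted p = 1.3e-06) to 4.08 (*Col1a1*, SE 0.32, adjusted p = 6.94e-10). DESeq2 did not call *Col11a1* here either (2.24, adjusted p = 0.745). Mesothelial cells against SMCs gave a mixed picture: 1 chain was higher (15.3% of genes were), 2 were lower (13.7% of genes were) and 4 were not called. The higher chain was *Col5a3* (2.61, SE 0.55, adjusted p = 0.000493), resting on 9 and 8 UMIs, and the lower ones were *Col5a1* (-1.64, SE 0.17, adjusted p = 5.73e-08) and *Col5a2* (-1.35, SE 0.19, adjusted p = 3.4e-06). Over all genes 2144 were higher and 1920 lower, a split that DESeq2 moved to 2485 and 1297. The values for *Col1a1* (-0.39, SE 0.28), *Col1a2* (-0.33, SE 0.29) and *Col3a1* (0.57, SE 0.28) did not pass, which does not show that these levels were alike. *Col11a1* (1.62, SE 1.11, adjusted p = 0.255), at 2 and 1 mesothelial UMIs, was called under 3 of the alternatives, among them doublets kept (3.45, adjusted p = 0.0361). The fibroblast markers stood in mesothelial cells at 0.183% to 32.1% of their fibroblast level in aorta 1 and 0.514% to 40.2% in aorta 2, and their part in these levels was not tested.

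SMCs exceeded endothelial cells for 4 chains, in a comparison where 14.0% of genes were called higher. The log2 fold changes were 3.42 for *Col1a1* (SE 0.32, adjusted p = 8.39e-09), 2.60 for *Col1a2* (SE 0.31, adjusted p = 3.35e-07), 2.51 for *Col3a1* (SE 0.30, adjusted p = 3.21e-07) and 1.51 for *Col5a1* (SE 0.15, adjusted p = 2.52e-08). *Col5a2* gave -0.21 (SE 0.16, adjusted p = 0.295) and *Col5a3* -1.27 (SE 0.57, adjusted p = 0.0648), which 6 alternatives called, DESeq2 among them (-1.50, adjusted p = 0.0126). With called doublets kept in the data and the cells clustered anew, the values were 1.36 for *Col1a1*, 1.59 for *Col1a2* and 1.40 for *Col3a1*, all still called, and -0.24 for *Col5a2*. The classes also changed in that setting, with a pericyte class of 161 and 94 cells, SMCs at 2250 and 1644 cells and endothelial cells at 844 and 753, and the part of each was not tested. With cells of 5000 to 25000 UMIs, *Col1a1* was at 2.33. The endothelial level of *Col5a2* was 50.2% and 49.9% of the fibroblast level, where the 8 fibroblast markers stood at 0.655% to 11.9% and 0.513% to 10.6%.

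Against lymphocytes, the background, SMCs were higher for 5 chains (26.1% of genes were called higher), with log2 fold changes from 2.56 for *Col1a1* (SE 0.31, adjusted p = 2.64e-07) to 3.57 for *Col5a1* (SE 0.21, adjusted p = 1.54e-12). All 5 stayed called under every alternative with a test, but their sizes moved, and *Col1a1* was at 1.31 with doublets kept, 1.69 with cells of 5000 to 25000 UMIs and 1.85 with no UMI limits. Without aorta 2 it was at 3.32, with no test. *Col5a3* at 0.89 (SE 1.00, adjusted p = 0.441) and *Col11a1* at 0.33 (SE 1.45, adjusted p = 0.855) were not called in SMCs. Under 3 alternatives *Col5a3* was called lower in SMCs than in lymphocytes, at -2.17 with cells of 5000 to 25000 UMIs (adjusted p = 0.0203), -1.59 with doublets kept (adjusted p = 0.0449) and -1.59 with no UMI limits (adjusted p = 0.0476). *Col11a1* ranged from -1.89 to 0.74 over the alternatives and was called in none. Endothelial cells were higher than lymphocytes for 2 chains (23.9% of genes were called higher), namely *Col5a2* at 3.58 (SE 0.22, adjusted p = 1.08e-11) and *Col5a1* at 2.06 (SE 0.23, adjusted p = 1.37e-07). *Col1a2* (0.75, SE 0.32, adjusted p = 0.0454) and *Col3a1* (0.81, SE 0.31, adjusted p = 0.0286) passed on p but not on size, and *Col1a1* gave -0.86 (SE 0.33, adjusted p = 0.0311), also short of the size. Its endothelial value was above the lymphocyte value in aorta 1 (69.0 and 61.5 CPM) and below it in aorta 2 (62.1 and 154 CPM), and it was called lower under 2 alternatives, Leiden resolution 2 and no UMI limits (-1.45 in the latter). *Col5a3* (2.17, SE 0.97, adjusted p = 0.0604) crossed the threshold when the aorta was added as a block (2.15, adjusted p = 0.049) and with no filter on low counts (2.19, adjusted p = 0.0376), but was at 0.85 with doublets kept, 0.31 with no UMI limits and -0.33 with cells of 5000 to 25000 UMIs, none of them called.

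The ratio of the type I chains differed between fibroblasts, SMCs and endothelial cells, but not between every pair of types. *Col1a1* made up 43.3% (exact 95% interval 43.0 to 43.5) and 42.6% (42.3 to 42.9) of *Col1a1* and *Col1a2* UMIs in fibroblasts of aortas 1 and 2, or 0.762 and 0.743 *Col1a1* UMIs for each *Col1a2* UMI. In SMCs it was 29.7% (29.2 to 30.2) and 29.1% (28.6 to 29.7), or 0.422 and 0.411 per *Col1a2* UMI. Mesothelial cells gave 27.2% (25.6 to 28.8) and 29.8% (27.9 to 31.7), and endothelial cells 19.3% (17.1 to 21.7) and 18.7% (16.1 to 21.5). Lymphocytes (38.6% and 43.7%) and myeloid cells (40.6% and 36.9%) lay near the fibroblast value. The fibroblast ratio was thus 1.81-fold the SMC ratio (log2 difference 0.85 in both aortas), and the SMC ratio 1.78-fold the endothelial one (0.82 and 0.84). Each of these comparisons separated the aortas completely, with an exact two-sided permutation p = 0.333, the smallest that 2 against 2 can give. SMC and mesothelial ratios overlapped (log2 difference 0.07, exact permutation p = 1). Over the 6 chain shares and 15 pairs of types no permutation p could pass a threshold of 0.05. The ratio is one of captured 3′ ends and not of protein chains, and whether capture of either gene differs between cell types was not tested. The intervals cover counting error only.

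With the lymphocyte level of the same aorta subtracted, the log2 difference between fibroblasts and SMCs was 0.98. It was 0.77 to 1.02 over all alternatives, lowest without the SMC clusters led by a pericyte marker. The SMC to endothelial difference was less firm, at 0.37 with cells of 5000 to 25000 UMIs and -0.20 with doublets kept, and it could not be computed after subtraction because no endothelial *Col1a1* was left in 1 aorta.

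**Figure D3:**
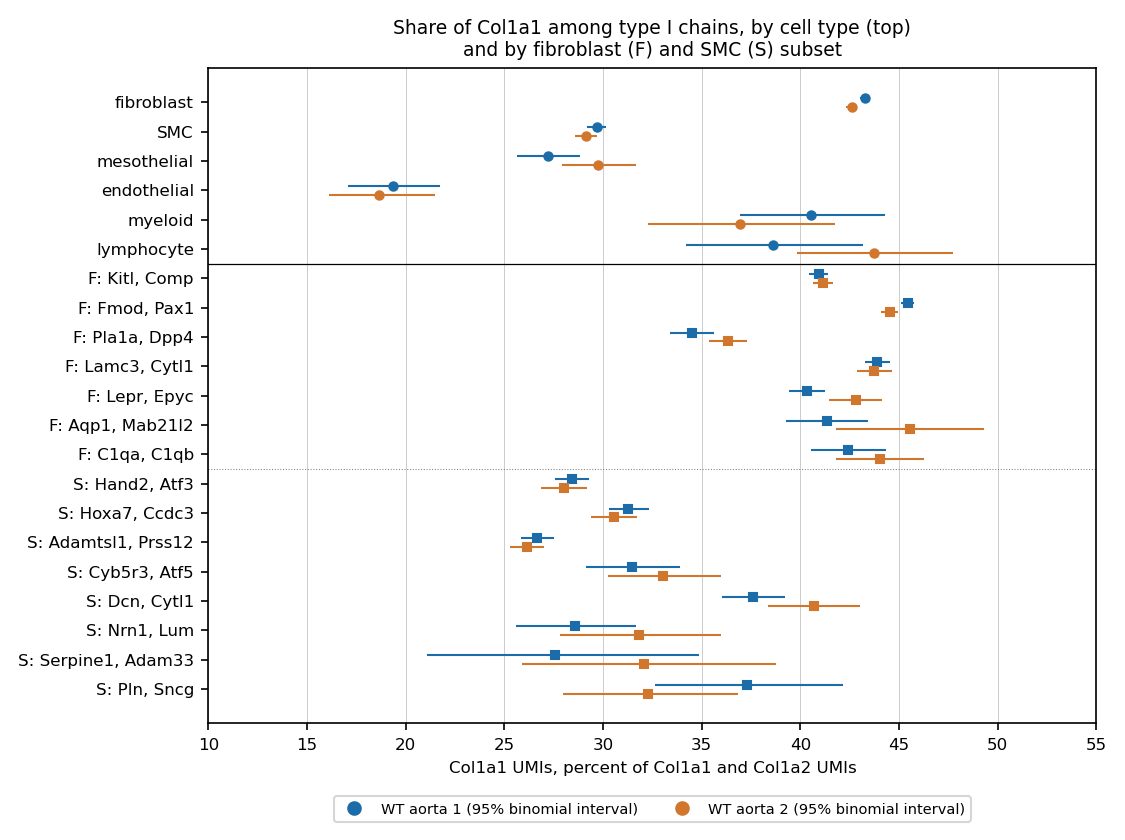
*Col1a1* as a percent of *Col1a1* and *Col1a2* UMIs (horizontal axis) by cell type and, beneath the line, by fibroblast (F) and SMC (S) subset named by its first leading genes; points are the 2 aortas with exact 95% binomial intervals. Fibroblasts lie at 42.6% and 43.3%, SMCs at 29.1% and 29.7% and endothelial cells at 18.7% and 19.3%; among SMC subsets the one led by *Dcn* and *Cytl1* is highest in aorta 2.

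Cells with at least 1 UMI were counted next. With each cell thinned to 1000 UMIs, which left out no cell, *Col1a1* was found in 90.9% and 90.8% of fibroblasts, 39.7% and 40.9% of SMCs, 6.24% and 3.97% of endothelial cells and 4.67% and 4.96% of lymphocytes. *Col1a2* was found in 96.5% and 97.3% of fibroblasts, 67.6% and 69.2% of SMCs, 21.4% and 19.5% of endothelial cells and 6.28% and 6.34% of lymphocytes. The endothelial share for *Col1a1* thus lay near that of lymphocytes, and the share for *Col1a2* above it. Unthinned, at median depths of 7630 and 7443 UMIs in SMCs and 4085 and 3895 in lymphocytes, *Col1a2* was found in 90.5% and 92.7% of SMCs and 21.9% and 17.6% of lymphocytes. Both type I chains were seen together in 89.0% and 88.9% of thinned fibroblasts and 30.9% and 31.0% of thinned SMCs. *Col1a2* without *Col1a1* was seen in 36.7% and 38.2% of SMCs, and the converse in 8.80% and 9.91%.

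Thinned shares for the other chains followed their levels. *Col3a1* was found in 94.9% and 96.0% of fibroblasts, 73.8% and 74.1% of mesothelial cells, 58.5% and 60.4% of SMCs and 15.2% and 16.8% of endothelial cells, against 6.76% and 7.16% of lymphocytes. *Col5a2* was found in 29.3% and 26.0% of endothelial cells, 19.9% and 21.3% of SMCs and 43.4% and 47.6% of fibroblasts, against 0.161% and 2.48% of lymphocytes. *Col5a3* was found in 5.14% and 6.21% of fibroblasts, and its shares in SMCs (0.169% and 0) and lymphocytes (0 and 0.275%) overlapped. *Col11a1* was found in 0.601% and 0.573% of fibroblasts. No thinned lymphocyte held one, but that allows shares of up to 0.483% and 0.826%, and the exact 95% intervals of both types overlapped in each aorta, so a difference from fibroblasts was not detectable at this depth.

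Among fibroblasts, SMCs, endothelial cells and mesothelial cells, type III relative to type I was lowest in fibroblasts. Endothelial *Col1a1* lay within the lymphocyte values, and endothelial *Col1a2* and *Col3a1* were not called above them. The part of RNA from other cells in the endothelial share was not tested. *Col3a1* made up 31.8% and 33.0% of the UMIs of *Col1a1*, *Col1a2* and *Col3a1* in fibroblasts, 36.9% and 36.2% in SMCs, 39.2% and 43.3% in endothelial cells and 53.1% and 51.2% in mesothelial cells. Mesothelial cells were therefore the only one of the 6 types in which type III UMIs outnumbered those of type I. Lymphocytes gave 33.3% and 32.2%. None of the fibroblast, SMC, endothelial and mesothelial ranges overlapped (exact permutation p = 0.333, the smallest possible).

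The composition of type V also differed between cell types. *Col5a1* and *Col5a2* made up 41.1% and 54.5% of type V UMIs in fibroblasts of aorta 1 (41.9% and 53.1% in aorta 2) and 41.3% and 58.5% in SMCs (40.3% and 59.5%). The *Col5a1* share overlapped between these types (log2 difference 0.04, exact permutation p = 0.667). The remaining share, that of *Col5a3*, was 4.46% (4.09 to 4.85) and 5.00% (4.55 to 5.49) in fibroblasts against 0.177% (0.0969 to 0.297) and 0.184% (0.0883 to 0.338) in SMCs. Endothelial type V was mostly *Col5a2*, at 82.7% (80.6 to 84.7) and 81.5% (79.1 to 83.8), with *Col5a1* at 16.8% and 17.8%. Endothelial and SMC shares did not overlap (exact permutation p = 0.333).

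Type V as a share of the UMIs of types I, III and V was 4.30% and 4.53% in fibroblasts, 12.1% and 11.8% in SMCs, 5.76% and 3.56% in mesothelial cells and 41.1% and 42.9% in endothelial cells. In log2 of the ratio, fibroblasts lay below SMCs by -1.61 and -1.49 in the 2 aortas, and SMCs below endothelial cells by -2.35 and -2.49 (exact permutation p = 0.333 for each, the smallest possible). The mean of the latter, -2.42, was -1.32 with doublets kept and -3.55 after subtraction of the lymphocyte level. Fibroblast and mesothelial values overlapped (p = 1 by the same permutation test). Lymphocytes gave 10.6% and 10.4%.

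**Figure D4:**
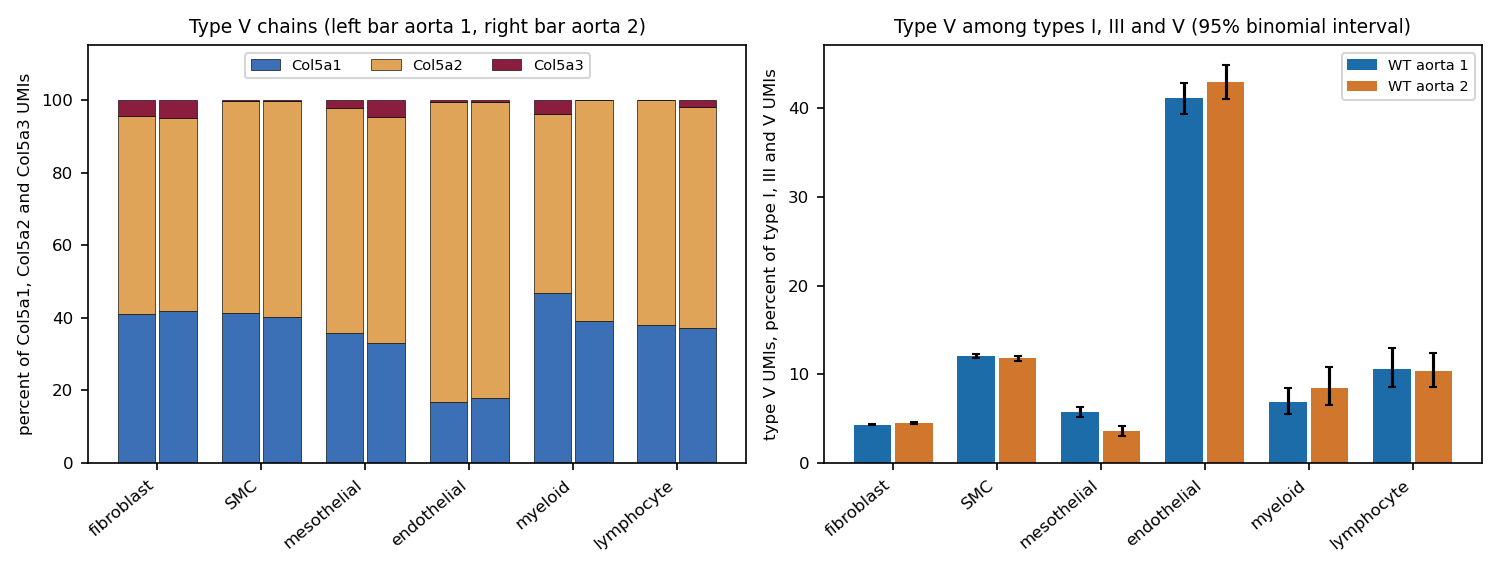
Left, percent of *Col5a1*, *Col5a2* and *Col5a3* among type V UMIs, a pair of stacked bars (aorta 1, aorta 2) per cell type; right, type V as percent of the UMIs of types I, III and V, with exact 95% binomial intervals. *Col5a2* takes 81.5% and 82.7% of type V in endothelial cells, and type V reaches 41.1% and 42.9% of the total there. *Col5a3* takes 4.46% and 5.00% in fibroblasts, while outside fibroblasts and SMCs it rests on at most 9 UMIs per cell type and aorta.

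Within fibroblasts, subclusters made without the chains differed in how much of them they held. The values are a description with no test, since the subsets are clusters of the same cells. The subset led by *Fmod*, *Pax1*, *Vegfd*, *Lrrn1* and *Fbln7* (426 and 279 cells) was highest for *Col1a1* at 15832 and 15726 CPM, for *Col1a2* at 19016 and 19587, for *Col3a1* at 13626 and 14375 and for *Col5a2* at 1023 and 1097. The subset led by *Kitl*, *Comp*, *Sfrp4*, *Hmcn2* and *Meox2* (389 and 328 cells) was second for *Col1a1* among subsets without leading genes of another class (7875 and 8708 CPM) and highest for *Col5a3* at 94.2 and 120 CPM, or 206 and 220 UMIs. At the other end lay the subsets led by *Pla1a*, *Dpp4*, *Sbsn*, *Cd55* and *Dact2* (181 and 217 cells), with *Col1a1* at 1880 and 2273 CPM, and by *Aqp1*, *Mab21l2*, *Tfap2b*, *Faim2* and *Chrm2* (80 and 22 cells), with 1772 and 1872 CPM. The highest and lowest subset means differed 8.66-fold for *Col1a1*, 8.12-fold for *Col1a2* and 5.18-fold for *Col3a1*, 4.15-fold for *Col5a2* and 1.85-fold for *Col5a1*.

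Chain ratios moved between these fibroblast subsets too. In the *Pla1a* and *Dpp4* subset *Col1a1* made up 34.5% (33.4 to 35.6) and 36.3% (35.4 to 37.3) of type I UMIs, the lowest of the fibroblast subsets in both aortas, against 45.4% and 44.5% in the *Fmod* and *Pax1* subset. Its type V share of types I, III and V was 8.55% and 8.25%, against 3.42% and 3.62% in the *Fmod* and *Pax1* subset. In the *Aqp1* and *Mab21l2* subset *Col5a1* outnumbered *Col5a2*, taking 60.9% and 56.8% of type V UMIs, and *Col5a3* gave 1 UMI in each aorta (2.0 and 5.8 CPM). Its *Col5a1*, at 373 and 366 CPM, was also at the low end of the fibroblast subset means, which ran only from 369.6 to 683 CPM. *Col11a1* UMIs were found mainly in the *Fmod* and *Pax1* subset (12 and 16) and in that led by *Lamc3*, *Cytl1*, *Dio2*, *Ltbp2* and *Heyl* (10 and 13). A further subset of 17 and 16 cells was led by the immune genes *C1qa* and *C1qb* and is left out of these ranks.

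Among SMC subsets the highest and lowest means differed 4.47-fold for *Col1a1*, 4.26-fold for *Col1a2*, 3.31-fold for *Col3a1* and 2.63-fold for *Col5a1*. For *Col1a1*, *Col3a1* and *Col5a1* the highest mean was that of a subset led by *Dcn*, in which fibroblast genes lead. The next highest means were 904 CPM for *Col1a1* and 1314 CPM for *Col3a1*, against lowest means of 311 and 688 CPM. The spans depended on how finely the cells were divided, and at subclustering resolution 1 those of *Col1a1*, *Col1a2* and *Col3a1* were 7.62-fold, 7.54-fold and 6.99-fold, against 10.1-fold, 9.68-fold and 5.95-fold among fibroblast subsets. That of *Col5a1* over SMC subsets was 4.69-fold at this resolution. Highest for *Col1a2* was the subset led by *Adamtsl1*, *Prss12*, *Hhip*, *Fbln1* and *Lamc3* (398 and 382 cells), at 2499.9 and 2542 CPM, where the other subsets without leading fibroblast genes ranged from 591 to 1210 in their means. Its *Col1a1*, at 908 and 900 CPM, was also highest among these, yet its *Col1a1* share of type I was the lowest of the SMC subsets in both aortas, at 26.7% (25.8 to 27.5) and 26.1% (25.3 to 27.0). *Col3a1* made up 26.7% and 28.7% of type I and III UMIs there, against 43.4% and 41.6% in the largest SMC subset, led by *Hand2*, *Atf3*, *Hspa1b*, *Hand2os1* and *Hspa1a* (680 and 395 cells). The subset led by *Pln*, *Sncg*, *Notch3*, *Pgf* and *Gm37800* (65 and 56 cells) was lowest for *Col1a1* at 290 and 331 CPM and *Col5a1* at 104 and 77.7 CPM.

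Of the SMC subsets, 2 with over 10 cells per aorta had fibroblast markers among their leading genes. That led by *Dcn*, *Cytl1*, *Serpinf1*, *Lum* and *Gpx3* (147 and 66 cells) had the highest *Col1a1* of the SMC subsets, at 1302 and 1476 CPM, a *Col1a1* share of 37.6% and 40.7%, and 7 and 3 of the 14 and 10 *Col5a3* UMIs of all SMCs. Its fibroblast markers summed to 6684 CPM in the mean of the aortas, against 463 to 758 CPM in the SMC subsets without leading fibroblast genes and 29147 CPM or more in the fibroblast subsets. Their part in these values was not tested. The subset led by *Nrn1*, *Lum*, *Igfbp5*, *Scin* and *Mme* (105 and 67 cells; fibroblast markers at 4271 CPM) was the one SMC subset in which *Col5a1* outnumbered *Col5a2* in both aortas, at 59.4% and 60.3% of type V UMIs. Without the subsets led by another class, the fibroblast to SMC log2 fold change was 3.73 for *Col1a1* and 6.75 for *Col5a3*, while that of *Col11a1*, with 1 and 5 of its SMC UMIs in the *Dcn* subset, was 6.08.

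**Figure D5:**
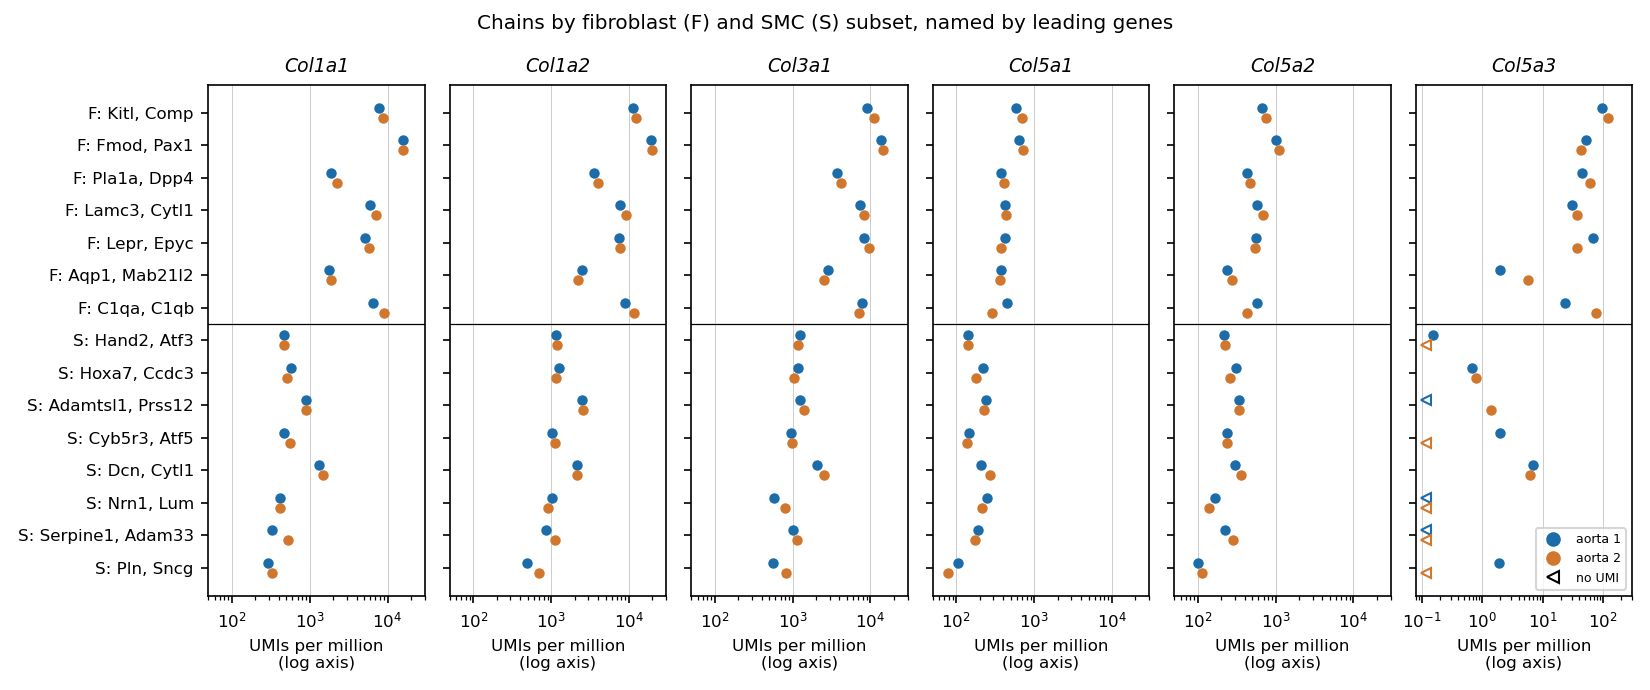
Level of 6 chains (CPM, log axis, a wider scale for *Col5a3*) in fibroblast (F) and SMC (S) subsets named by their first leading genes; points are the 2 aortas and open triangles mark no UMI. The *Fmod* and *Pax1* fibroblasts sit highest for *Col1a1* (15726 and 15832 CPM), while *Col5a1* varies little among fibroblast subsets.

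Genes whose pattern was most like that of each chain were ranked by Pearson's r of log2(CPM + 1) over 28 clusters taken per aorta (56 points, which share libraries and depth) among 9378 genes. *Col1a1*, *Col1a2* and *Col3a1* were each other's closest genes, with r of 0.95 for *Col1a1* and *Col1a2*, 0.96 for *Col1a2* and *Col3a1* and 0.94 for *Col1a1* and *Col3a1*. After them came *Islr* for *Col1a1* (0.91), *Adamts2*, the N-propeptidase, for *Col1a2* (0.94) and *Ogn*, a small proteoglycan, for *Col3a1* (0.93). The type V chains had other neighbours, which were *Sspn*, *Gpx8* and *Col1a2* for *Col5a1* (0.93, 0.92 and 0.92) and *Fbln5*, *P3h3* and *Bgn* for *Col5a2* (0.92, 0.91 and 0.90). Those of *Col5a3* were *Pcsk6*, *Ms4a4d* and *Ccl11* (0.91, 0.88 and 0.88), and those of the sparse *Col11a1* were *Angpt4*, *Mmp3* and *Cpxm2* at 0.80. *Col5a1* and *Col5a2* correlated at 0.82 with each other, and *Col5a3* at 0.69 and 0.64 with them.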

How the data were processed

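Thoracic aortas of 2 WT mice were profiled, each as 1 library of 3′ single-cell RNA-seq. The authors deposited raw UMI counts per gene and cell from Cell Ranger 4.0.0 (per the file headers) on mm10, in the numbers of cells that the labels give before the study's filter. Here, cells with over 200 genes, 1000 to 25000 UMIs and under 10% mitochondrial UMIs were kept (6744 and 4698). The study's limits for sorted SMCs (5000 to 25000 UMIs and more than 1 eGFP UMI) served as alternatives. Scrublet doublets were removed (205 cells, 3.04%, and 84 cells, 1.79%). Cells were scaled to 10000 and clustered in scanpy 1.11.5 with Python 3.11.15 (2000 variable genes, 30 components, 15 neighbours, leidenalg 0.10.2 at resolution 1; subsets at 0.5), leaving out the chains and the processing lists. Of 30 clusters, 28 were named from marker lists (at least 3 markers in 25% of cells), so that each name stands for cells like that type. A class name was withheld where 2 of 10 leading genes belonged to another class, or where the median UMIs were under the aorta's median divided by 3 with no own marker leading. Rebuilt names may differ from the study's.

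Cells are not replicates, so counts were summed over the cells of a type in each aorta, and 7 types with at least 10 cells per aorta entered 1 edgeR 4.0.16 model in R 4.3.3 (TMM, filterByExpr, quasi-likelihood test, Benjamini-Hochberg adjustment over 13973 genes). Besides the 6 types described, these included 23 and 13 erythroid cells, with 42 and 1 *Col1a1* UMIs. All types shared 1 estimate of the spread. With only the 2 compared types in the fit, all 7 chains stayed called higher in fibroblasts than in SMCs. Calls needed a log2 fold change beyond 1 in either direction with an adjusted p below 0.05. The test was tried on simulated data with known changes. SE is the fold change over the root of F. Sums of 1 aorta come from the same animal. Their deviations from the type means correlated at 0.03 to 0.28 over 15 pairs of types (9 over 0.1), so a fit with the aorta as a block was an alternative. Ratios were compared by exact two-sided permutation, and shares carry exact binomial intervals, for counting error only. The named genes are the 7 chains, the 2 highest and 2 lowest called genes of the processing lists, the other fibrillar chains, and the 3 genes most alike to each chain among those with a mean of 10 CPM or more. Members and lists were chosen with earlier results of these data known. DESeq2 1.42.0 and other alternatives are given in the closing section. Promoters are from RefSeq and gene positions from GENCODE vM21.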

Additional observations from a re-analysis of the deposited data

How the results depend on the processing

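Counts of called genes stayed within 1.5 times in all 6 comparisons under the 14 alternatives with a test, from 3243 to 4429 for fibroblasts against SMCs, and the fold changes of the 7 chains there kept direction and call wherever they were tested, except the call of *Col11a1* with DESeq2. Leaving out an aorta leaves no residual degrees of freedom, so those are values with no test. The aorta as replicate block changed 1 call of a chain, *Col5a3* in endothelial cells against lymphocytes, and no other.

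The fibroblast share of all UMIs of the 7 chains, 77.4%, was 74.5% with 5000 to 25000 UMIs, 78.3% with no UMI limits, 74.2% with doublets kept, 77.0% at resolution 2, 76.9% with the chains allowed in the clustering and 73.3% with the eGFP limits. With settings chosen after seeing the data, it was 77.95% without the low-UMI SMC cluster, 78.7% without subsets led by another class, 83.5% without the SMC clusters led by a pericyte marker and, because most SMCs were removed, 94.6% with SMCs lacking fibroblast markers. At 2 or more UMIs, *Col1a1* was found in 79.1% of thinned fibroblasts (from 90.9%) and 13.8% of SMCs (from 40.3%). Subclustering at resolution 1 moved the range of *Col1a1* over SMC subsets from 4.47-fold to 7.62-fold.

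With DESeq2, which changes the scaling and the estimator together, the median log2 fold change of all genes for fibroblasts against SMCs was 0.35 in place of 0.11. *Col5a3* in SMCs against lymphocytes, not called at 0.89, was called at -2.17 with 5000 to 25000 UMIs, -1.59 with doublets kept and -1.59 with no UMI limits. Other signs changed with no call on either side, for *Col11a1* in SMCs against lymphocytes (0.33, down to -1.89) and against endothelial cells, which held no UMI of it. The same held in mesothelial cells against SMCs for *Col1a1* (-0.39, up to 0.17) and *Col1a2* (-0.33, up to 0.07). *Col5a3* in endothelial cells against lymphocytes (2.17, down to -0.33) was called on the positive side only, with the aorta as a block and with no filter on low counts. The *Col1a1* to *Col1a2* log2 ratio of SMCs minus endothelial cells went from 0.83 to -0.20 with doublets kept. The type V ratio of fibroblasts minus mesothelial cells (-0.04) was -0.44 and 0.37 with each aorta alone and 0.21 after subtraction of the lymphocyte level. The causes were not tested. Outside fibroblasts, *Col5a3* and *Col11a1* rest on at most 14 and 5 UMIs per cell type and aorta.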
